A study of Mus musculus with 5 samples.

Results

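The 10 RNA-binding regulators of neural splicing and transcript stability, Elavl2, Elavl3, Elavl4, Nova1, Rbfox1, Rbfox2, Rbfox3, Ptbp1, Ptbp2 and Celf4, were followed in mouse medulloblastoma, a tumour of the cerebellum. They were read from all the probe sets to which the array platform's annotation gives one of these 10 names and no other. There were 32 such probe sets, of 34945 with a single gene symbol (10 genes of 18193), and all 32 had a mean signal of at least 100 over the 5 arrays, the minimum for testing. Expression had been measured on Affymetrix arrays in 4 medulloblastomas and 1 cerebellum labelled P5, read as postnatal day 5. The titles of medulloblastomas 1 and 2 carry the prefix ken, and those of the other 3 arrays, the cerebellum among them, the prefix hmk. The series title concerns tumours from mice mutant for the chemokine receptor gene Cxcr6 and an inhibitor of Smoothened, but genotype, treatment, strain and tumour age are not given for single arrays. Neither genotype nor treatment was therefore compared, and tumour cannot be told apart from age in the comparison with the cerebellum. Nothing states whether tumours came from separate mice, so p-values measure only the spread among these arrays, which may be in part technical. The submitters' own design note says that replicates were too few for statistics.

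These proteins bind short motifs in RNA and decide which exons are kept or how long a transcript lasts. Elavl2, Elavl3 and Elavl4 are the neuronal Hu proteins, which bind AU-rich and U-rich stretches and mark cells that have become neurons. The Rbfox proteins bind UGCAUG, and Rbfox3 carries the NeuN antigen by which pathologists recognise mature neurons, granule neurons of the cerebellum among them. Nova1 binds clusters of YCAY (Y being C or U) and controls exons of synaptic proteins, and Celf4 is a neuronal relative of the CUG-binding proteins. Ptbp1 works in the opposite sense: in dividing progenitors and non-neural cells it represses neuronal exons, including one that its paralogue Ptbp2 needs for a stable transcript. When a progenitor becomes a neuron, the microRNA miR-124 lowers Ptbp1, and Ptbp2 takes its place. The arrays report signal at fixed probes and do not count exons, so no splicing of any target was measured.

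Values below are the deposited signals, linear intensities in arbitrary units in which each array has a trimmed mean of 500. Differences are of log2(signal + 32), the mean of the tumours minus the cerebellum, given ± the standard error from limma. The constant of 32 understates changes of dim probe sets. Each gene is represented by its brightest probe set in a fit over 14109 genes, and the other probe sets come from a fit over 25843. Signals of different probe sets cannot be set against each other as levels, since each has its own response. The cerebellum has no replicate, so the spread measured for a gene comes from the 4 tumours with 3 residual degrees of freedom. limma draws that spread toward a trend over all genes tested, with a weight of 5.02 prior degrees of freedom. Standard errors, intervals and p-values therefore rest in part on the other genes. With 1 array in a group, the smallest p of an exact permutation test would be 0.2.

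None of the 10 genes was called, that is, passed a Benjamini-Hochberg adjusted p of 0.05 (limma), against 0.489% of all genes tested (0.312% higher and 0.177% lower). That background itself moved with the arrays used: of all genes tested, 69 passed with all 4 tumours, 0 without medulloblastoma 4, 2 without medulloblastoma 2, 14 without medulloblastoma 3 and 862 without medulloblastoma 1. At an unadjusted p under 0.05 it was 1 gene, Rbfox1, where the share of all genes was 15.2%. Of the 32 probe sets, 0 passed the adjusted threshold (0.248% of all probe sets), and 2 were higher and 2 lower at an unadjusted p under 0.05 (7.49% and 6.19% of all). The gene differences ran from -0.60 for Rbfox2 to 1.14 for Rbfox1, with a median of 0.06 against -0.07 over all genes. Their median absolute difference was 0.28, against 0.41 over all genes. By gene, 3 members lay above the cerebellum in all 4 tumours and 0 below it in all 4, against 25.1% and 30.8% of all genes. A difference of at least 2-fold in each tumour was reached by 0 of the 10 genes, against 4.64% of all. By probe set, 7 of 32 lay above in all 4 tumours and 5 below, against 25.4% and 28.4%. The 95% intervals of the gene differences were wide, so a member without a call may still differ by the amounts they span.

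**Figure D1:**
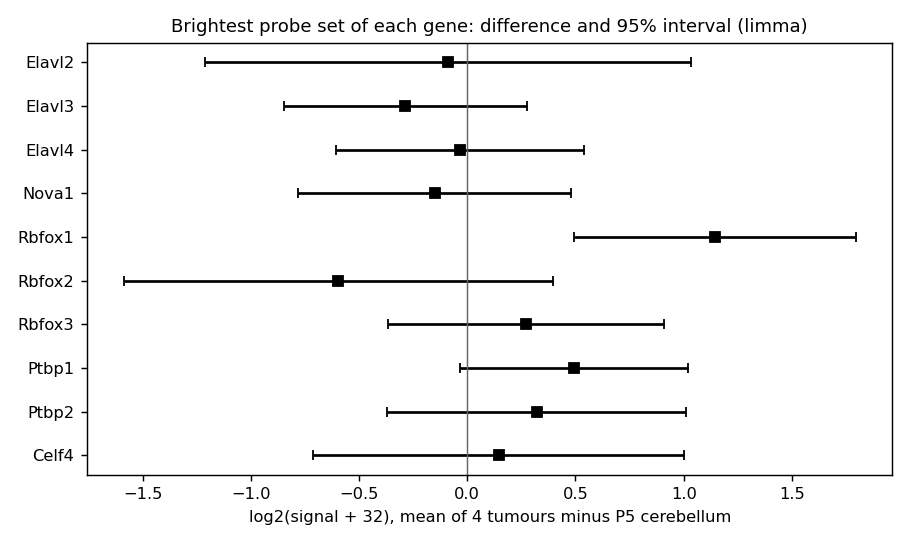
Difference between the mean of the 4 medulloblastomas and the P5 cerebellum in log2(signal + 32) for the brightest probe set of each of the 10 genes (squares), with 95% intervals from limma (bars). The interval of Rbfox1, from 0.49 to 1.80, is the only one of the 10 that lies wholly on one side of 0, and no gene passed the adjusted threshold.

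Rbfox1, a UGCAUG-binding splicing regulator of neurons, heart and muscle, had the largest difference of the 10. Its brightest probe set, 1418314_a_at, read 1809.9, 1571, 1227 and 1738 in medulloblastomas 1 to 4 and 692 in the cerebellum. All 4 tumours were thus above the cerebellum, and the lowest of them, medulloblastoma 3, was still 0.80 above it on the log2 scale. The difference was 1.14 ± 0.28, with a 95% interval from 0.49 to 1.80 and an adjusted p of 0.134 (limma). In absolute size it ranked at the 89.3 percentile of all genes. A second probe set, 1455358_at, read 2154, 1525, 913 and 972 against 739, again with every tumour above, but with both ken tumours higher than both hmk tumours (difference 0.80 ± 0.45, adjusted p = 0.469). The probe set 1447735_x_at read 306, 292, 215 and 183 against 68.5, which gave 1.46 ± 0.46 (adjusted p = 0.25). Of the 32 it alone was 2-fold or more away in each of the 4 tumours, a criterion met by 4.69% of all probe sets. Its name ends in x_at, the maker's mark for probes that may also bind other transcripts. The fourth, 1438217_at, did not separate the groups, at 566, 291, 368 and 321 against 296 (difference 0.31 ± 0.41). All 4 probe sets had a positive mean difference, and 3 of them lay above the cerebellum in every tumour; they measure transcripts of a single gene and are not independent.

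Rbfox1 was also the one gene of the 10 whose call depended on which arrays were used. The hmk arrays are medulloblastomas 3 and 4 and the cerebellum. For any gene or probe set, the spread measured within them comes from that single pair of tumours, before limma draws it toward the trend. Within the hmk arrays its difference was 1.04 with an adjusted p of 0.0347, where 11.9% of all genes were called. Without medulloblastoma 1 it was 1.08 with an adjusted p of 0.0481, where 6.07% of all genes were called. Its adjusted p ran from 0.0347 to 0.466 over 17 alternatives, while the difference stayed between 0.93 and 1.33. In the fit over probe sets, where more features are adjusted for, the same probe set was not called under any alternative (lowest adjusted p 0.0583).

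Rbfox2, the family member made widely outside neurons as well, read lower on average at all 4 of its probe sets, none of them called. The brightest, 1418245_a_at, read 1823, 720.4, 1212 and 1219 against 1804 in the cerebellum. Medulloblastoma 1 was close to the cerebellum there, while medulloblastoma 2 was the lowest. The difference was -0.60 ± 0.43 (adjusted p = 0.533). At 1434938_at the order of the tumours was another: 627, 985, 953 and 990.4 against 1399, with medulloblastoma 1 the lowest and the other 3 close together (-0.66 ± 0.33). The probe set 1418247_s_at, whose ending marks probes shared by transcripts of more than one gene, read 321, 446, 283 and 343 against 529 (-0.58 ± 0.36). These last 2 lay below the cerebellum in every tumour. The dimmest, 1418246_at, read 66.9, 239, 370.2 and 261 against 223, a difference of -0.10 ± 0.71. Only medulloblastoma 1 was below the cerebellum there, and the sign of the difference changed under 4 of 15 alternatives.

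Rbfox3, whose product is NeuN, showed no difference that passed the test. At 1436450_at it read 10422, 7799, 6518 and 6928 against 6441. All 4 tumours were above the cerebellum, medulloblastoma 1 by the most and medulloblastoma 3 by little, and the difference was 0.27 ± 0.28 with an interval from -0.36 to 0.91. The second probe set, 1456149_at, read 2719.6, 2292, 1478 and 2275 against 2181 (-0.03 ± 0.34), and the third, 1427286_at, 626, 799.5, 572 and 568 against 700.1 (-0.13 ± 0.31). In both the cerebellum lay inside the range of the tumours. Mature granule neuron genes, which were read beside Rbfox3, summed to 55344, 34292, 21199.7 and 25519 in medulloblastomas 1 to 4 and 36121 in the cerebellum over 11 genes. Such a sum is carried by its brightest probe sets, and the median difference of the 11 genes was 0.68 (by tumour 1.99, 0.70, -0.43 and 0.08). The genes were divided: 4 lay above the cerebellum in every tumour and 3, Neurod2 (-1.80 ± 0.65), Neurod1 (-0.81 ± 0.23) and Reln (-0.55 ± 0.39), below it in every tumour, with 4 higher and 2 lower at an unadjusted p under 0.05. The 1 called gene was Gabra6, higher in the tumours at 6856, 3252, 1664 and 2402 against 164 (3.99 ± 0.63, adjusted p = 0.0468). The share of this cell type in the Rbfox3 signal was not tested, and in bulk tissue fewer cells of a type and less RNA per cell cannot be told apart.

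**Figure D2:**
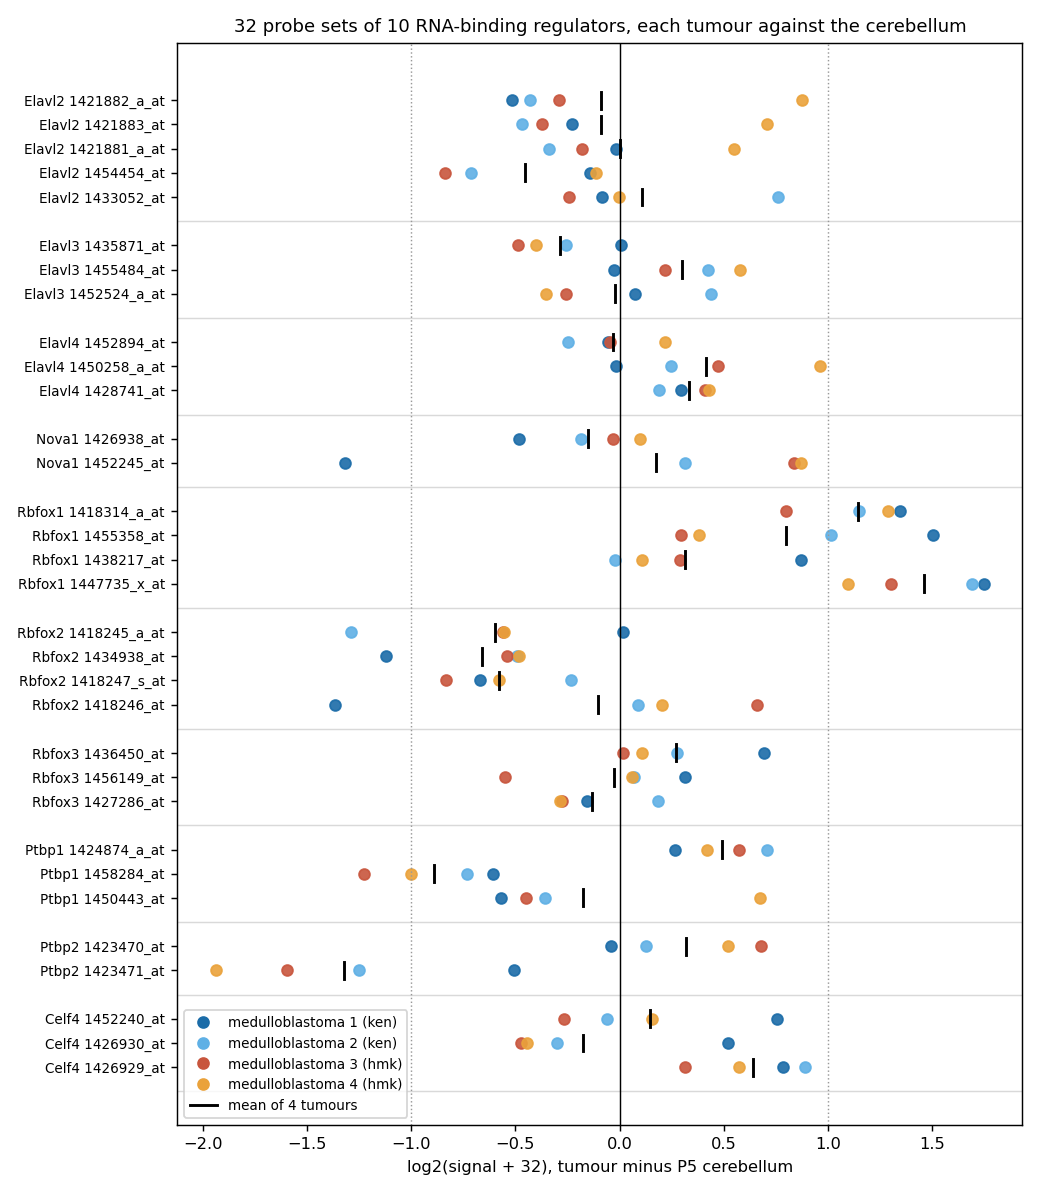
Difference of each tumour from the P5 cerebellum in log2(signal + 32) for all 32 probe sets (points, coloured by tumour; black bars, mean of the 4 tumours; dotted lines, 2-fold). The 4 probe sets of Rbfox1 have positive means up to 1.46, the 4 of Rbfox2 negative ones, and the probe sets of Ptbp1 and Ptbp2 lie on both sides of 0.

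Ptbp1, the repressor of neuronal exons, gave opposite readings at its 2 brighter probe sets. At 1424874_a_at it read 5824, 7916, 7203 and 6478 against 4836, above the cerebellum in every tumour, and differed by 0.49 ± 0.23 (adjusted p = 0.358). At 1458284_at it read 1915, 1759, 1239 and 1451 against 2939.7, below the cerebellum in every tumour, and differed by -0.89 ± 0.30 (adjusted p = 0.268). The intervals of the differences, from -0.05 to 1.03 and from -1.57 to -0.21 in the fit over probe sets, did not overlap. The third and dimmest, 1450443_at, read 135, 162, 149.6 and 363 against 216, with only medulloblastoma 4 above the cerebellum. With the 3 probe sets averaged, the Ptbp1 difference was -0.19 in place of 0.49, so the direction for the gene depends on the probe set taken to represent it. Within the hmk arrays 1458284_at was called (-1.11, adjusted p = 0.0233, where 8.04% of all probe sets were), and its adjusted p ran from 0.0233 to 0.522 over 15 alternatives. Which part of the gene each probe set reads was not known here.

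Ptbp2, the neuronal paralogue, showed the same kind of disagreement. Its bright probe set 1423470_at read 3488, 3926, 5760.3 and 5157 against 3592. The hmk tumours were above the cerebellum and the ken tumours near it, and the difference was 0.32 ± 0.30 with an interval from -0.37 to 1.01. The dimmer 1423471_at read 671, 387, 299 and 229 against 966, below the cerebellum in every tumour and lowest in medulloblastoma 4. Its difference of -1.32 ± 0.51 had an adjusted p of 0.319. The order of the 2 pairs of tumours was reversed between the probe sets: both ken tumours were below both hmk tumours at the first and above them at the second. With both averaged the Ptbp2 difference was -0.50, so its direction too depends on the probe set. The dimmer probe set was called within the hmk arrays (-1.77, adjusted p = 0.0201) and without medulloblastoma 1 (-1.59, adjusted p = 0.0431, where 4.71% of all probe sets were called). The adjusted p ran from 0.0201 to 0.543 over 15 alternatives.

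**Figure D3:**
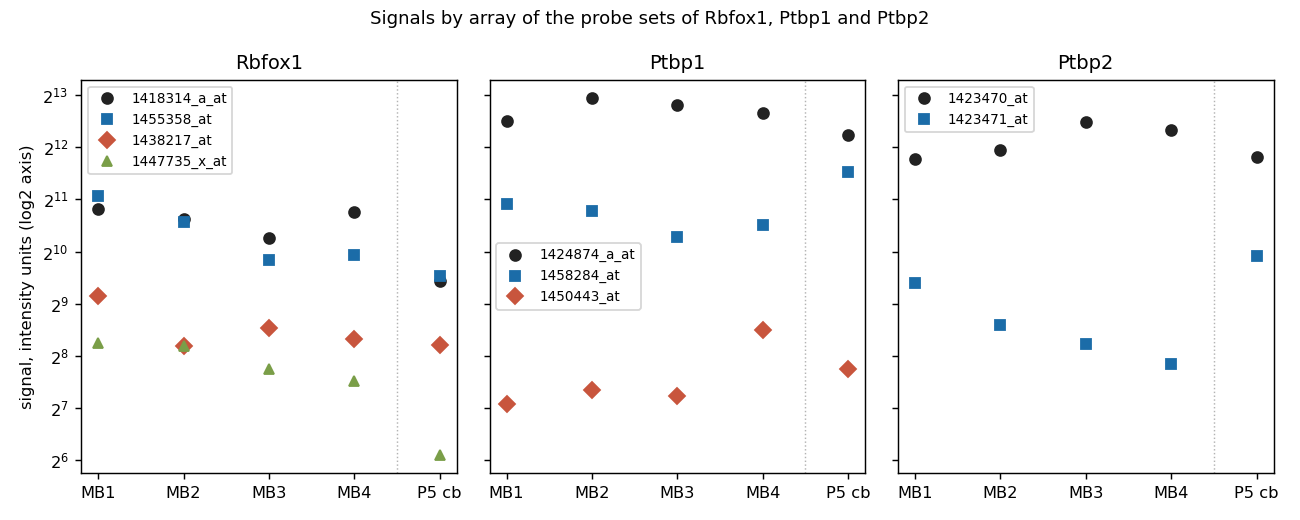
Signals of each probe set of Rbfox1, Ptbp1 and Ptbp2 on the 4 medulloblastoma arrays (MB1 to MB4) and the P5 cerebellum (P5 cb), in intensity units on a log2 axis. Ptbp1 1424874_a_at is lowest in the cerebellum and 1458284_at highest there, and the 4 tumours sit at 229 to 671 for Ptbp2 1423471_at, under the cerebellum's 966.

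None of the 11 probe sets of the neuronal Hu genes passed the test. Elavl2, or HuB, stood out in medulloblastoma 4. At 1421882_a_at it read 2398, 2549, 2811 and 6346 against 3441, so that medulloblastomas 1 to 3 were below the cerebellum and medulloblastoma 4 above it. The probe sets 1421883_at (2141, 1809, 1936 and 4133 against 2517) and 1421881_a_at (1753, 1399, 1564 and 2607 against 1776) put medulloblastoma 4 in the same place. Over the 4 tumours the difference was -0.09 ± 0.49 (adjusted p = 0.945), and without medulloblastoma 4 it was -0.41, still not called (adjusted p = 0.535). The other 2 probe sets did not set medulloblastoma 4 apart: 1454454_at read 565, 369.6, 337 and 576 against 627, and 1433052_at read 123, 247, 107 and 132 against 133, with medulloblastoma 2 the highest. Within its 4 tumours Elavl2 had an SD of 0.65 in log2(signal + 32), at the 85.6 percentile of all genes and the largest of the 10.

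Elavl3, or HuC, which is used as an early marker of neurons, read 5603, 4655, 3966 and 4214 against 5581 at its brightest probe set. Medulloblastoma 1 was close to the cerebellum and the other 3 were below it, and the difference was -0.29 ± 0.24 (interval from -0.85 to 0.27). A second probe set, 1455484_at, went the other way, at 1891, 2592, 2242 and 2884 against 1925 (0.30 ± 0.28), and the third, 1452524_a_at, differed by -0.02 ± 0.34. Elavl4, or HuD, which stabilises transcripts of growing neurites such as that of Gap43, read 2134, 1868, 2154 and 2587 against 2223 at 1452894_at, a difference of -0.03 ± 0.25. Its other 2 probe sets were higher on average, 1450258_a_at at 951, 1147, 1346 and 1901 against 962 (0.42 ± 0.37) and 1428741_at at 1184, 1099, 1287 and 1305 against 960.1 (0.33 ± 0.26). At 1428741_at all 4 tumours were above the cerebellum, by between 0.19 and 0.43 on the log2 scale. Intervals of 1450258_a_at (from -0.43 to 1.26) and 1428741_at (from -0.26 to 0.93) included 0.

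Nova1, named for an antigen of a paraneoplastic movement disorder, read 1500.3, 1849, 2057 and 2259 against 2107 at 1426938_at. The cerebellum lay between the tumours, and the difference was -0.15 ± 0.27 with an interval from -0.78 to 0.48. The dim probe set 1452245_at read 25.5, 146, 224 and 230.0 against 111, with medulloblastoma 1 far below the rest. Its SD among the tumours, 1.03, was at the 96.1 percentile of all probe sets, and the value in medulloblastoma 1 was below the constant of 32.

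Celf4, whose loss in mice causes seizures, was not called at any of its 3 probe sets. At 1452240_at it read 2682, 1513, 1306 and 1759 against 1578, highest in medulloblastoma 1 and lowest in medulloblastoma 3, which gave 0.15 ± 0.37. The probe set 1426930_at had the same highest and lowest tumour, at 2010.3, 1122, 992 and 1015 against 1391 (-0.18 ± 0.40). Only 1426929_at put every tumour above the cerebellum, at 1263, 1363, 902 and 1085 against 720.4. Its difference of 0.64 ± 0.31 had an adjusted p of 0.404.

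Several members separated the tumours by the prefix of their titles, whose meaning is not given. Such a separation was common over all genes and not particular to the members. By gene, 6 of the 10 did so (2 higher and 4 lower in ken), against 44.8% of all genes. Both ken tumours were above both hmk tumours at 11 of the 32 probe sets and below them at 8, together 19, against 44.5% of all probe sets (21.7% above, 22.8% below). All 3 probe sets of Rbfox3 and 2 of the 3 of Celf4 were above in ken, whereas all 3 of Elavl4 and both of Nova1 were below. As the probe sets of a gene share its transcripts, these 32 values are fewer than 32 independent ones. The cerebellum is an hmk array, so prefix and tissue overlap in part, and the values within the hmk arrays are given above for the probe sets where they changed a call. The signals of 15 pan-neuronal genes summed to 72033, 51401, 38093 and 43235 in medulloblastomas 1 to 4 and 78006 in the cerebellum. That sum, carried by its brightest probe sets, was higher in both ken tumours than in both hmk tumours. The median differences of these genes by tumour, -0.30, -0.86, -1.06 and -0.78, overlapped between the prefixes. Medulloblastoma 1, the highest of these, also had the highest ratio between control probes at the 3' and 5' ends of a transcript, which reads RNA quality, at 1.45 for actin against 1.21 to 1.35 on the other arrays. The part of these in the members' values was not tested. Over all 10 genes the median SD among tumours was 0.27, against 0.31 over all genes tested. No member's log2 values spanned 2 or more across the 5 arrays (largest 1.39), the least span set for naming genes of like pattern, so none are named.

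No other regulator with tissue-biased expression was called either. Of 22 listed, 21 had a named probe set and 19 were tested, with 0 called in either direction, 2 higher and 2 lower at an unadjusted p under 0.05 and a median difference of -0.30. The size of that median depended on the setting: it was -0.10 with equal medians, -0.10 without probe sets ending in x_at or s_at, -0.18 with all probe sets of a gene averaged and -0.19 within the hmk arrays. The largest differences were those of Khdrbs2, a STAR-family splicing factor of neurons (-0.85 ± 0.63), Celf1 (0.81 ± 0.27), Mbnl1 (0.67 ± 0.22) and Nova2 (-0.62 ± 0.25). Celf1, a widely made relative of Celf4, read 8806, 6335, 8233 and 10230.5 against 4696, and Mbnl1, the muscleblind protein that opposes it on many exons, 4047, 3809, 3217 and 3536 against 2271. Both were above the cerebellum in every tumour, and Celf1 was called within the hmk arrays, where 11.9% of all genes were. Nova2, the paralogue of Nova1, was below it in every tumour, at 2118, 2024, 1628 and 2186 against 3046 (adjusted p = 0.304).

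The SR proteins and hnRNPs, which most cells use for general splicing, were higher on average. Some were called within the hmk arrays, where 11.9% of all genes were, but none with all 4 tumours. Of 28 genes tested, 0 were called, 7 were higher and 0 lower at an unadjusted p under 0.05, and 21 lay above the cerebellum in all 4 tumours with 0 below it in all 4. Their median difference was 0.46, against 0.06 for the 10 members and -0.07 for all genes. The difference between these lists was not tested. Srsf3 read 5847, 9120.2, 10087 and 10206 against 5108 (0.75 ± 0.32), and Srsf5, Syncrip and Srsf10 differed by 0.74 ± 0.31, 0.74 ± 0.31 and 0.68 ± 0.36. Genes of dividing cells, read beside them, had a median of 0.87 over 14 genes with 0 called, 10 higher and 0 lower at an unadjusted p under 0.05, and summed to 70627 to 81428 in the tumours against 41419 in the cerebellum. The furthest were Anln (1.33 ± 0.27), Mcm4 (1.32 ± 0.29), Kif11 (1.18 ± 0.31) and Mcm2 (1.16 ± 0.31).

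No known target of these proteins was called. The list held genes whose transcripts the Hu proteins bind or stabilise and those that Ptbp1 lowers through an exon, with the member Nova1 among the first. Of its 13 entries 11 were tested with 0 called, 1 higher and 3 lower at an unadjusted p under 0.05. The median was -0.46. Of the 11, 1 lay above and 6 below the cerebellum in every tumour. Within the hmk arrays, where 11.9% of all genes were called, Mapt, Ache, Mycn, Gabbr1, Gap43 and Nrn1 were called. Without medulloblastoma 1, where 6.07% of all genes were, Mapt, Ache and Mycn were. Gap43 and Nrn1 differed by -0.46 ± 0.27 and -0.53 ± 0.60 over the 4 tumours. Mapt, which encodes tau and is bound by Elavl4, read 2033, 2006, 869 and 952 against 6648 (-2.26 ± 0.49, adjusted p = 0.109), below the cerebellum in every tumour. Ache, for acetylcholinesterase, was likewise below in every tumour (-1.91 ± 0.60). Mycn, a growth gene of granule neuron precursors that also contains a Hu binding region, was above in every tumour (1.01 ± 0.23, adjusted p = 0.115), and Bdnf, a neurotrophin, ranged from 68.5 to 523 around 88.5. Dlg4 and Gabbr1, the entries for Ptbp1, differed by -0.92 ± 0.36 and -0.50 ± 0.34 and lay below the cerebellum in every tumour; both are named for their link to Ptbp1, after their values were seen.

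**Figure D4:**
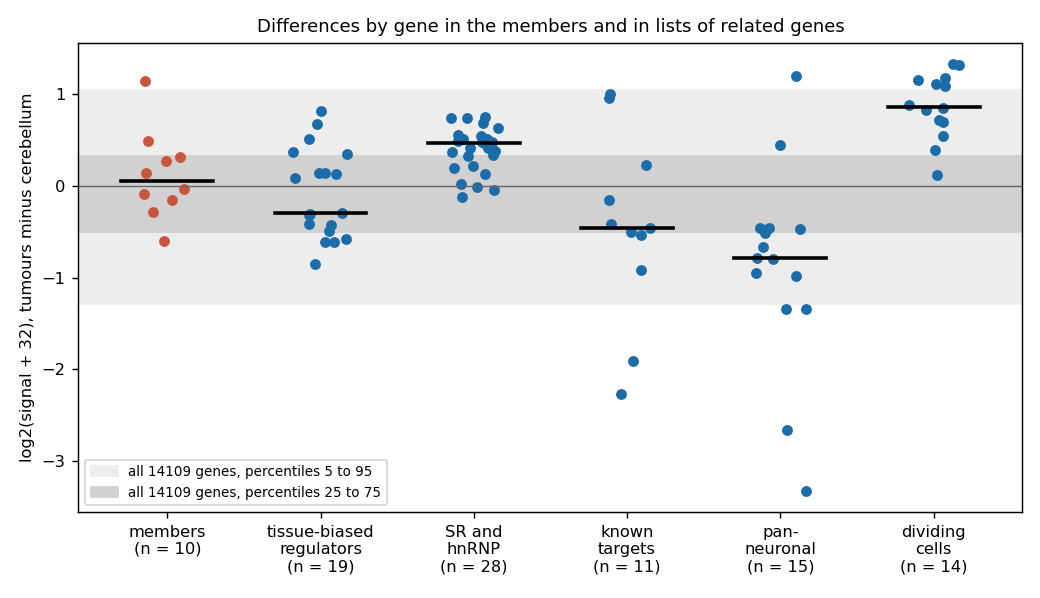
Differences of tumours from P5 cerebellum in log2(signal + 32) by gene (points) for the 10 members and 5 lists, with list medians (black bars) and the spread of all genes tested (grey bands). The members centre near 0.06, the SR and hnRNP genes near 0.46 and the pan-neuronal genes near -0.79.

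Markers of the cells that could hold these transcripts are given for the whole lists. Pan-neuronal genes had a median difference of -0.79 over 15 genes, with 10 below and 1 above the cerebellum in every tumour and 0 called. Their furthest members were Nefl (-3.32 ± 0.68), Nefm (-2.66 ± 0.66), Stmn2 (-1.34 ± 0.46) and Syt1 (-1.34 ± 0.70). The 1 above in every tumour was Snap25 (1.20 ± 0.47). Granule precursor genes summed to 52699 to 66354 in the tumours and 46016 in the cerebellum, with 1 of 9, Atoh1 (2.81 ± 0.40, limma adjusted p = 0.0336), called. Their median difference was 0.79. Of the 9, 6 lay above the cerebellum in every tumour and 2, Pax6 (-1.02 ± 0.34) and Zic1 (-0.40 ± 0.21), below it in every tumour. Purkinje cell genes summed to 11764 to 41368 against 42931 with 0 of 10 called (median difference -0.82). They were divided, with 2 above and 4 below the cerebellum in every tumour. The furthest were Pvalb (2.38 ± 0.58), Pcp4 (-2.33 ± 0.72), Calb1 (-1.64 ± 0.69) and Car8 (-1.60 ± 0.78). Interneuron genes summed to 1584 to 4441 against 7530.2 with 0 of 7 called (median -1.53). The furthest of these were Slc32a1 (-2.54 ± 1.02), Ptf1a (-2.34 ± 0.70), Sst (-2.33 ± 0.55) and Lhx5 (-1.53 ± 0.43). Astrocyte and Bergmann glia genes summed to 33036 to 35157 against 78335 (median -1.35), with 2 of 12, Aldh1l1 (-2.64 ± 0.28) and Aqp4 (-2.09 ± 0.27), called lower. Of the 12, 7 lay below in every tumour and 3, S100b (1.62 ± 0.35), Slc1a2 and Sox9, above. Vessel and connective tissue genes summed to 5822 to 8421 against 19212 with 1 of 12, Col3a1 (-2.40 ± 0.30), called lower (median -1.61). Microglia genes summed to 17386 to 19005 against 6926 with 3 of 10, Ctss (2.37 ± 0.23), C1qa (1.95 ± 0.25) and Tyrobp (1.44 ± 0.23), called higher (median 1.45), and oligodendrocyte genes stood at 20877 to 41265 against 21217 with a median difference of 0.27. Of the 9 oligodendrocyte genes 1, Mobp (3.71 ± 0.58), was called higher, 4 lay above the cerebellum in every tumour and 2, Cnp (-0.71 ± 0.27) and Sox10 (-0.49 ± 0.26), below it in every tumour. The top of their summed range was medulloblastoma 1, where Mbp, a myelin protein gene, read 28288 against 7719 to 11445 in the other tumours. No marker was listed at 0. Of 9 regional genes of the cerebellum 8 had a probe set, with 0 called and a median difference of -0.30. Of these, 5 lay below the cerebellum in every tumour and 2 above. The lowest signals among them were those of En1, 29.4, 48.3, 1.47 and 121 in the tumours against 389 (-2.57 ± 0.95). Pcp2 (-1.28 ± 0.67), Barhl1 (0.97 ± 0.24) and Cbln1 (-0.63 ± 0.47) were at 1496 or more on every tumour array. The part of any of these cells in the members' values was not tested.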

How the data were processed

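RNA from 4 mouse medulloblastomas and 1 P5 cerebellum was hybridised to Affymetrix arrays; per the labels' protocols Trizol was used for all but medulloblastoma 4, for which only a maker's procedure is named. The authors deposited linear intensities, 1 per probe set for each array. The authors made them with MAS5 for 4 of the arrays, per the submitters' processing notes; the tool for medulloblastoma 3 is not given in the sources used here, but its trimmed mean is that of the others. Detection calls were not used here. No depth applies to arrays, and their number limits the precision.

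Of 45101 probe sets, 64 were controls, 34945 had 1 gene symbol, 932 several (not used) and 9160 were unnamed here; 34741 matched RefSeq genes of GRCm38.p6 by Entrez ID, which served for names alone and changed 0 symbols. Each array was set to a trimmed mean of 500 (2% off each end), and log2(signal + 32) of the deposited intensities was taken. The 18193 genes were each represented by the probe set with the highest mean, and features with a mean of at least 100 were tested with limma 3.58.1 in R 4.3.3 (lmFit, eBayes with a variance trend; two-sided, Benjamini-Hochberg over all features tested). The procedure was tested on simulated data with spreads taken from the tumours. It called 0.8% of added log2 differences of 1, and 29.6%, 43.6% and 56.4% of those of 2, 3 and 4. In the simulated data a difference of about 1 was therefore seldom called. The simulation changed 200 of 14109 genes, whereas 15.2% of all genes had an unadjusted p under 0.05 (limma) in the real data. Its shares need not hold for the members. Replicate numbers are names only, so nothing was paired.

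Members, 14 companion lists and alternatives were chosen with earlier results of these data known. Named genes were all members; from each list described, the called genes or, with none, up to 4 with the largest differences; and, for members whose log2 values span at least 2, the 3 nearest profiles. Neurod1, Neurod2, Reln, Cnp, Sox10, Mbp, Pax6, Zic1, S100b, Slc1a2, Sox9, Snap25, Gap43 and Nrn1 were named after their values were seen. Alternatives were other scalings, constants (8, 64) or a floor of 50, other filters (none, 200), other choices of probe set, eBayes without a trend, leaving out each tumour, and using only hmk arrays; the ken tumours with the hmk cerebellum were added after seeing the data.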

Additional observations from a re-analysis of the deposited data

Results flagged for a closer look

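At 2 probe sets 1 tumour lay far from the other 3, by the gap to its nearest neighbour as a share of the range of the 4 tumours. For Elavl2 1421882_a_at the share was 0.837, with medulloblastoma 4 at 6346 and the others between 2398 and 2811. For Rbfox2 1434938_at it was 0.915, with medulloblastoma 1 at 627 and the others between 953 and 990.4. Dixon's 95% limit for 4 samples is passed by chance in about 1 of 20 groups; here 2 of 32 member probe sets passed it, and 5.92% of all probe sets tested.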

How the results depend on the processing

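No member was called except Rbfox1 within the hmk arrays and without medulloblastoma 1 (1 gene each), Ptbp1 1458284_at and Ptbp2 1423471_at within the hmk arrays (2 probe sets), and Ptbp2 1423471_at without medulloblastoma 1. Leaving out 1 tumour gave 0 to 1 member genes called, 0 to 1 probe sets and 0 to 1 genes past 2-fold in each of the tumours; that gene was Rbfox1, also with equal medians (1) and with the ken tumours alone (1). The median SD among tumours was 0.11 within the hmk arrays. Of the genes of related lists, 19 of 55 tested were called within the hmk arrays, where 11.9% of all genes were. Without medulloblastoma 1, 5 of 56 tested were called, where 6.07% of all genes were. With any other single tumour left out, 0 of 56 were called. Over all genes the number called, 69, was 1697 within the hmk arrays, 0 to 862 with 1 tumour left out and 0 with no variance trend. Of 647 gene and probe set differences recomputed, 54 changed sign, none of them called, 5 passed the threshold where the reported one did not, and 588 kept direction and side. The differences that changed sign after quantile normalization were Rbfox2 1418246_at 0.0538, Elavl2 1421881_a_at -0.0505 and Ptbp1 1450443_at 0.00875. The differences that changed sign with equal medians were Elavl2 0.10, Elavl4 0.16, Nova1 0.0424, Rbfox2 1418246_at 0.0648, Elavl2 1421882_a_at 0.10, Elavl2 1421883_at 0.10, Celf4 1426930_at 0.0161, Nova1 1426938_at 0.0424, Rbfox3 1427286_at 0.0523, Elavl3 1452524_a_at 0.17, Elavl4 1452894_at 0.16 and Rbfox3 1456149_at 0.17. The differences that changed sign with all probe sets of a gene averaged were Elavl4 0.24, Nova1 0.0125, Ptbp1 -0.19 and Ptbp2 -0.50. The differences that changed sign within the hmk arrays were Elavl2 0.29, Elavl4 0.0854, Nova1 0.0325, Celf4 -0.0565, Rbfox2 1418246_at 0.43, Elavl2 1421882_a_at 0.29, Elavl2 1421883_at 0.17, Nova1 1426938_at 0.0325, Elavl2 1433052_at -0.12, Ptbp1 1450443_at 0.11, Celf4 1452240_at -0.0565 and Elavl4 1452894_at 0.0854. The differences that changed sign with the ken tumours against the hmk cerebellum were Elavl2 1421881_a_at -0.18, Celf4 1426930_at 0.11, Rbfox3 1427286_at 0.0143, Elavl3 1452524_a_at 0.26 and Rbfox3 1456149_at 0.19. With 1 tumour left out, signs changed for Elavl2 -0.41 to 0.053, Celf4 -0.0574 to 0.28, Rbfox2 1418246_at -0.36 to 0.32, Elavl2 1421882_a_at -0.41 to 0.053, Celf4 1452240_at -0.0574 to 0.28, Elavl4 -0.12 to 0.0375, Elavl2 1421883_at -0.36 to 0.0352, Elavl2 1433052_at -0.11 to 0.22, Elavl4 1452894_at -0.12 to 0.0375, Nova1 1452245_at -0.0559 to 0.67, Elavl3 1452524_a_at -0.18 to 0.0858, Rbfox3 1456149_at -0.14 to 0.15, Elavl2 1421881_a_at -0.18 to 0.12. The direction was the same under every alternative for Elavl3, Rbfox1, Rbfox2 and Rbfox3 by gene. Apart from the averaging of probe sets, these alternatives read each gene at a single probe set. With all probe sets averaged, Elavl3 differed by only -0.0045 and Rbfox3 by 0.037, and probe sets of both genes went in both directions. Equal medians moved the median of all genes from -0.07 to 0.12. No paired analysis was possible because the cerebellum has 1 array and the labels give no shared replicate numbers. With intensities alone, dim probe sets such as Nova1 1452245_at are limited by signal over background, which was not known here.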
